A study of Mus musculus with 8 samples.

Results

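Rnase4, Ang and Rnase1 encode 3 secreted ribonucleases, and they were followed here as all probe sets annotated to these genes, by current or older symbol, on both array types of a study of mouse pancreatic islets. Each of the 3 genes had 1 probe set, 3 of 24965 in all, and each was on MG-U74A, so that MG-U74B gave no value for them. Islets of knockout mice, lacking 1 gene, were set against islets of wild type mice. Each genotype had 2 replicates, which the series' design text calls biological, on each Affymetrix array type, MG-U74A and MG-U74B, which makes 8 arrays. Strain, age, sex and the number of animals behind a replicate were not given in the sources used here, and neither was the way the gene was inactivated. Nor did they say in which cells it was. The genes were chosen with results of this comparison known, and their values are therefore given as a description, with no p-value.

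The pancreatic ribonuclease family, named after ribonuclease A, consists of small secreted enzymes held together by disulfide bonds, which cut single-stranded RNA. Rnase1 is the pancreatic ribonuclease of the digestive juice, made by acinar cells. Angiogenin, the product of Ang, is a weak ribonuclease known for inducing the growth of blood vessels and for cutting transfer RNA in stressed cells. Rnase4 cuts RNA after uridine, and in the mouse its gene and Ang share 5' noncoding exons, from which each message continues to a coding exon of its own. In the cytosol the ribonuclease inhibitor, encoded by Rnh1, binds and blocks members of the family.

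All 3 genes lie on chromosome 14. The bases before their annotated transcription starts are shown because Rnase4 and Ang have a start in common. Of 2 annotated starts of Rnase4, the first is also that of Ang, and the 250 bases before it were the same 250 bases for both genes. Sequences are from RefSeq, build GRCm38.p6, written 5′ to 3′ in the direction of transcription, with capitals for the motifs found.
Rnase4 and Ang, shared start, chr14:51090827-51091076, plus strand: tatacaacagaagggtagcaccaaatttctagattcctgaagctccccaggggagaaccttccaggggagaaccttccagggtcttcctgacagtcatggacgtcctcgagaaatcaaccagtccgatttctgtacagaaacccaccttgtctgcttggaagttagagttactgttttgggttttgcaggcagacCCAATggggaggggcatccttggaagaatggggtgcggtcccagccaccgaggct
Rnase4, second start, chr14:51095750-51095999, plus strand: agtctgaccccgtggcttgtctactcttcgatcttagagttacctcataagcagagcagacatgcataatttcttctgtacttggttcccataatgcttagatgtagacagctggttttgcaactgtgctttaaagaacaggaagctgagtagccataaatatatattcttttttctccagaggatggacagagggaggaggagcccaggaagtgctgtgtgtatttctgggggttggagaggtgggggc
Rnase1, chr14:51146768-51147017, minus strand: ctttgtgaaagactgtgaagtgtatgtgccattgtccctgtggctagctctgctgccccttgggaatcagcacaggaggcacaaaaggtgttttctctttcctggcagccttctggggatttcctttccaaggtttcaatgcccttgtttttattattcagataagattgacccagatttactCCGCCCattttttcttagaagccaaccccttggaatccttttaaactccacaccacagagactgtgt
The motifs searched on both strands were TATAAA (the TATA box), CCAAT (the CCAAT box) and GGGCGG (the GC box). The shared window held 1 CCAAT, the Rnase1 window held 1 GGGCGG, read on the opposite strand, and the second Rnase4 window held none of the motifs. None of the found motifs overlapped another. Among 32817 such windows of mouse genes, 33.8% held CCAAT, 32.7% held GGGCGG and 12.4% held TATAAA. G and C made up 52.4% of the shared window, 46.0% of the second Rnase4 window and 45.6% of the Rnase1 window, against a median of 52.4% over all windows. The dinucleotide CG occurred 5, 2 and 1 times in these windows, against a median of 6. The arrays do not tell which start a message came from.

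The values are linear intensities as the authors deposited them, scaled to a common trimmed mean, leaving out 2% of values at each end, of 250.2 for MG-U74A and 250.1 for MG-U74B. Differences are given as log2 of the intensity plus a constant of 10% of that mean, knockout minus wild type, which understates the change of dim probe sets. Tested were 7516 MG-U74A and 7861 MG-U74B probe sets, which had a mean over the 4 arrays of at least 62.5. On MG-U74A the Spearman correlation across probe sets was 0.956 between the knockout arrays, 0.979 between the wild type arrays and 0.865 to 0.868 between arrays of different genotypes. For Gapdh the 3' control probe set over the 5' one, a ratio that is higher in less complete RNA, was 0.943 ± 0.00849 in knockout and 3.19 ± 0.0499 in wild type on MG-U74A (SD, n = 2 each). The same ratio for actin differed less, with 1.14 ± 0.0269 in knockout and 1.46 ± 0.0157 in wild type. The islet hormone genes, with 5 measured on MG-U74A, summed to 77266 to 85291 per array in knockout and 113975 to 114485 in wild type. None of these 5 was near 0 on any array, and they were lower in knockout by a median log2 difference of -0.43.

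Rnase4 had the widest gap between the genotypes of the 3 genes. Its probe set read 195.7 and 192.1 on the knockout arrays, against 4415.7 and 4475.1 on the wild type arrays. Both knockout arrays were far below both wild type arrays, and arrays of a genotype lay close together. The mean was 194 ± 2.55 in knockout and 4445 ± 42.0 in wild type (SD, n = 2 each), so that the knockout level was 4.36% of the wild type level. Wild type over knockout was 22.6-fold for the closest pair of arrays and 23.3-fold for the pair farthest apart. The log2 difference was -4.35 ± 0.04 (standard error), the 8th largest fall among the 7516 tested probe sets.

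Ang was lower in knockout as well. Its probe set read 142.5 and 106.3 on the knockout arrays, against 788.5 and 787.9 on the wild type arrays. The knockout arrays differed from each other by 36.2 and the wild type arrays by 0.6, and the groups were separated by 645.4. The mean was 124 ± 25.6 in knockout and 788.2 ± 0.424 in wild type (SD, n = 2 each), a knockout level of 15.8% of wild type. The log2 difference was -2.46 ± 0.14, which stood 97th among the falls. The fold of wild type over knockout lay between 5.53 and 7.42 over pairs of arrays, below the whole range of Rnase4, the gene with which it has a start in common. The probe set's name carries the ending f_at, which marks one that matches several sequences of a gene family, so that part of its signal can come from related genes.

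Rnase1 was dim in both genotypes. Its probe set read 31.5 and 16.0 on the knockout arrays, against 177.5 and 165.3 on the wild type arrays. The groups did not overlap, and the knockout pair differed by 15.5, a large part of its own level. The mean was 23.8 ± 11.0 in knockout and 171 ± 8.63 in wild type (SD, n = 2 each), or 13.9% of wild type. The log2 difference was -2.03 ± 0.24, the 187th largest fall, and the fold of wild type over knockout ran from 5.25 to 11.1 over pairs of arrays. At these intensities the log2 difference depends on the constant added, with -2.38 for a constant of 5% of the trimmed mean and -1.59 for 20%.

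**Figure D1:**
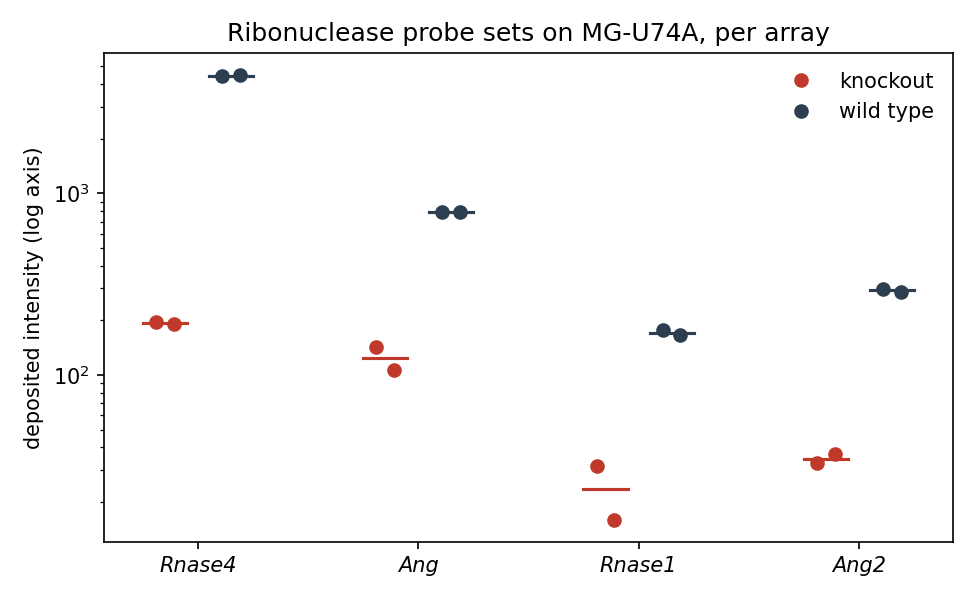
Deposited intensity (log axis) of the Rnase4, Ang, Rnase1 and Ang2 probe sets on each MG-U74A array, with points for arrays and lines for the mean of 2 arrays. In each gene both knockout points lie below both wild type points, by the widest gap for Rnase4 (195.7 and 192.1 against 4415.7 and 4475.1). Heights of different probe sets are not comparable.

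In all 3 probe sets both knockout arrays lay below both wild type arrays, as they did in 43.9% of the tested probe sets of MG-U74A. Past the threshold of the test, 29.0% of these fell and 23.9% rose. Nothing is read from the count of members, since they were chosen on this comparison. All 3 passed the filter on dim probe sets of 62.5, and the knockout mean was above it for Rnase4 (194) and Ang (124) and below it for Rnase1 (23.8), which passed through its wild type arrays. RNA of whole islets was measured, so fewer cells of a type and less RNA per cell cannot be told apart.

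**Figure D2:**
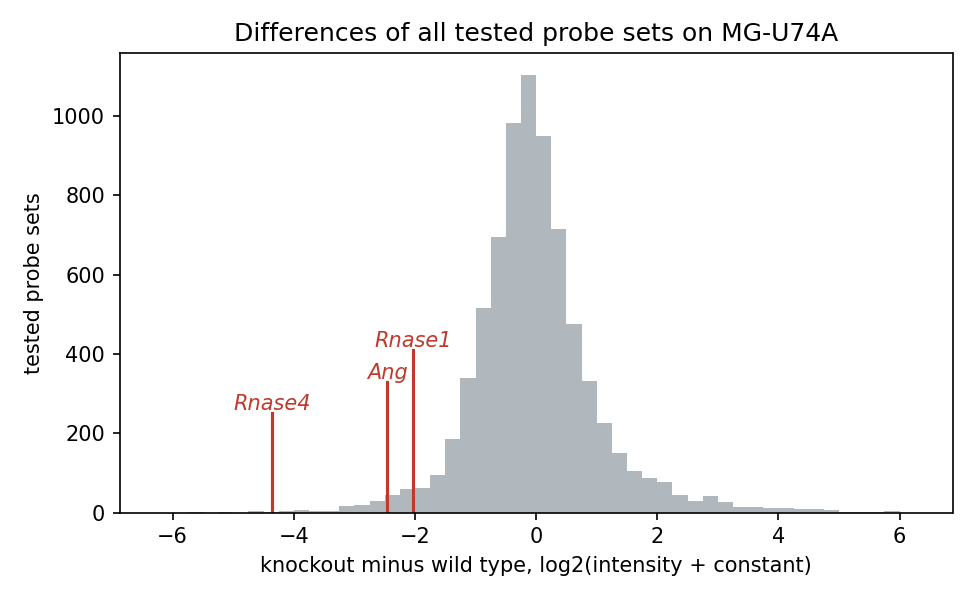
Number of tested MG-U74A probe sets by log2 difference, knockout minus wild type, in bins of the log2(intensity + constant) scale, with red lines at the 3 ribonuclease genes. The bulk of the 7516 probe sets lies around a median of -0.09, Rnase1 and Ang lie at -2.03 and -2.46 in the lower tail, and Rnase4 lies at -4.35 near its end.

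The family has further members in the mouse, of which 24 were listed besides Rnase4, Ang and Rnase1. Probe sets of a single gene were on the arrays for 4 of them, and Ang2 alone was bright enough to be tested. Ang2, which encodes an angiogenin-related ribonuclease, read 32.7 and 36.7 in knockout, against 299.6 and 288.4 in wild type. It fell by 2.42 ± 0.14 on the log2 scale (limma, adjusted p = 6.92e-04), against -2.46 for Ang. The knockout mean of Ang2, 34.7, was below the filter on dim probe sets, which Ang2 passed through its wild type arrays. Its log2 difference depends on the constant added, with -2.70 for a constant of 5% and -2.02 for 20%. The Ang2 probe set also carries the family ending, so it may not measure Ang2 apart from Ang. Its fall can therefore not be read as a separate result on the family. How much signal the probe sets share was not tested. Rnase2b, of the eosinophil-type ribonucleases, read 10.6 and 20.6 in knockout and 20.5 and 4.1 in wild type, with groups that overlapped near 0. Ear14, of the same branch, was listed below 0 on every MG-U74A array. Ang4, an angiogenin of intestinal Paneth cells, was on MG-U74B and read -187.6 and -130.8 in knockout, against 233.8 and 25 in wild type. The wild type arrays of Ang4 lay farther from each other than the groups did at their closest, and its mean was below the filter. The Ang4 probe set carries the family ending too, so it may not measure Ang4 apart from related genes. A further MG-U74A probe set, annotated to more than 1 gene of the family and so not named, read 23.6 and 33.1 in knockout and 60.8 and 76.6 in wild type.

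Several of these genes are neighbours. In the order of the reference gene table, Ang directly follows Rnase4, Rnase1 is the 4th gene after it, Rnase2b the 5th, Ang2 the 7th and Ear14 the 8th. Among the 10 genes on each side of Rnase4, 18 were other than Ang and Rnase1. Of these 18, only Rnase2b, Ang2 and Ear14 had a probe set of their own, and only Ang2 was tested. Measured genes of this stretch were therefore all ribonucleases: Rnase4, Ang, Rnase1 and Ang2 were lower in knockout on every array, and Rnase2b and Ear14 were at or near 0 in both genotypes. On the other side of Rnase4 the nearest 10 genes, mostly transfer RNA genes, had no probe set.

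The inhibitor Rnh1 moved the other way on its brighter probe set. That probe set read 649.5 and 702.4 in knockout, against 366.8 and 388.4 in wild type, and rose by 0.80 ± 0.07 (limma, adjusted p = 0.00193). The other Rnh1 probe set read 397.7 and 340.0 in knockout and 332.9 and 336.6 in wild type, a difference of 0.13 ± 0.10 that did not pass the threshold (adjusted p = 0.345). The rise of Rnh1 past the threshold thus rests on 1 of its 2 probe sets. On the other, the closest arrays of the genotypes read 340.0 and 336.6, nearer than its knockout arrays lay to each other. The name of that probe set also carries the family ending f_at.

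Plxnb2 encodes plexin B2, a described receptor of angiogenin, and it was lower in knockout on both of its probe sets. The first read 574.5 and 553.8 in knockout, against 883.2 and 889.7 in wild type, and fell by 0.63 ± 0.05 (limma, adjusted p = 0.00137). The second read 281.2 and 281.8 in knockout, against 872.0 and 874.1 in wild type, and fell by 1.55 ± 0.05 (adjusted p = 2.47e-04). The probe sets share the direction and differ in size. Egfr, the epidermal growth factor receptor, reported as an angiogenin receptor in human cells, read 220.4 and 160.9 in knockout and 132.1 and 221.0 in wild type on its MG-U74A probe set that was tested, with overlapping groups. Its difference there was 0.12 ± 0.28 (adjusted p = 0.746), and on MG-U74B it was 0.61 ± 0.27 (adjusted p = 0.191).

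Other binding partners of angiogenin, or members of the plasminogen system with which it has been linked, were mostly higher. Anxa2 (annexin A2) rose by 1.38 ± 0.04, to 5961 ± 180 in knockout against 2272 ± 19.3 in wild type (SD, n = 2 each, limma, adjusted p = 1.48e-04). S100a10, the partner protein of annexin A2, rose by 1.13 ± 0.05 on its brighter probe set, while its dim probe set gave 0.07 ± 0.21. Fst (follistatin) rose by 1.14 ± 0.19 on MG-U74A (adjusted p = 0.0112), and without wild type replicate 2 it did not pass (adjusted p = 0.0565). The wild type mean of Fst on MG-U74A, 53.9, was below the filter on dim probe sets, which Fst passed through its knockout arrays. It is among the rises counted below. The same gene gave 0.33 ± 0.27 on MG-U74B. Plat (tissue plasminogen activator) rose by 0.77 ± 0.12. Sdc1, a cell surface proteoglycan, had 0.66 ± 0.25 on its brighter probe set and did not pass the threshold (adjusted p = 0.0895), and its other probe set gave -0.18 ± 0.40 with overlapping groups. The 9 genes of inhibitor and partners were all on MG-U74A, 8 were tested, and 5 rose, 1 fell and 2 did not pass, with a median of 0.78. Over all 5707 tested genes of that array type 22.7% rose and 30.2% fell, with a median of -0.12. Plg (plasminogen) was too dim to be tested.

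**Figure D3:**
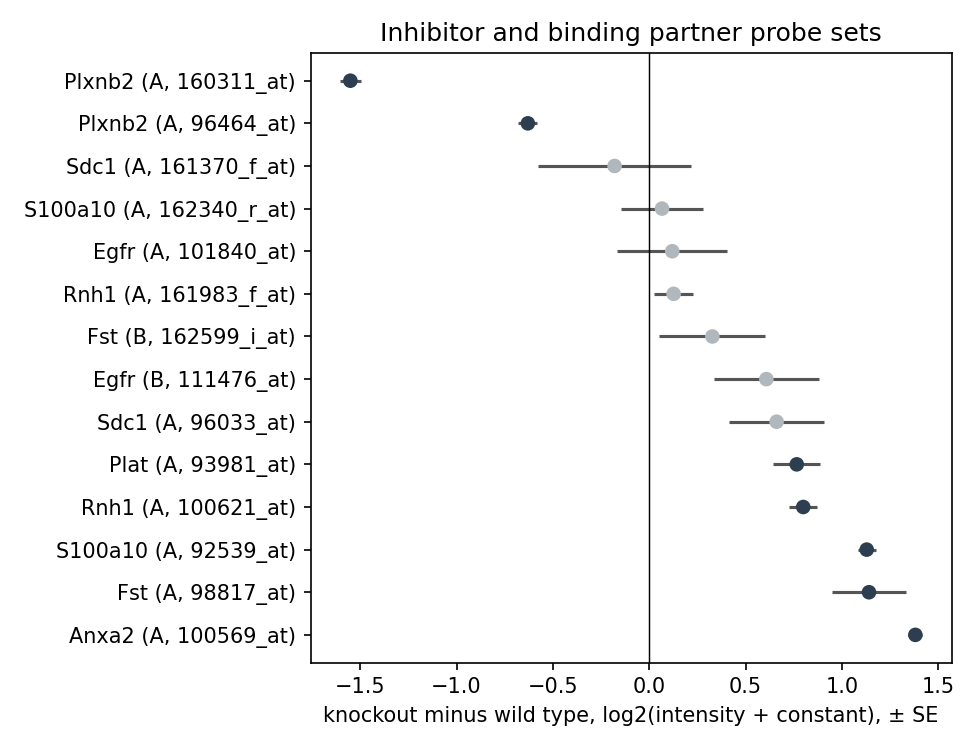
Log2 difference, knockout minus wild type, with its standard error, for each tested probe set of the inhibitor Rnh1 and of the binding partners, with the array type (A or B) and probe set in parentheses. Dark points passed the threshold. Both Plxnb2 probe sets lie left of 0, at -1.55 and -0.63, and the dark points on the right end with Anxa2 at 1.38.

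Rnase1 belongs to the secretion of acinar cells, and other genes of these cells were lower in knockout too. Of 14 tested acinar genes on MG-U74A, 13 fell and 0 rose by limma, the same at an unadjusted p under 0.05, with a median of -2.68, where 30.2% of all tested genes fell. The 2 tested on MG-U74B fell as well, where 9.60% of the genes of that array type fell. The acinar genes summed to 6512 to 6922 per array in knockout and 44149 to 44481 in wild type on MG-U74A. On MG-U74B they summed to 915.6 to 1350 in knockout and 11942 to 12140.0 in wild type. Clps, pancreatic colipase, read 44.2 and -60.5 in knockout against 1018.1 and 926.1 in wild type, and fell by 4.58 ± 0.52. The size of that fall depends on the constant added, since a knockout value was below 0. Clps and Spink1, with knockout means of -8.15 and -2.4, passed the filter on dim probe sets through their wild type arrays. Both are among the falls counted above. Amy1 (amylase) fell by 3.79 ± 0.11. On MG-U74B Cela3b (elastase) and Cpb1 (carboxypeptidase B) fell by 3.60 ± 0.21 and 3.10 ± 0.19, both with adjusted p = 0.00530. Those 2 calls ended without wild type replicate 1 (adjusted p = 0.0725 for both) or 2 (adjusted p = 0.0667 for both), settings in which 1 probe set rose and 0 fell on MG-U74B in all, by limma, with 1170 and 752 at an unadjusted p under 0.05 without replicate 1 and 1137 and 719 without replicate 2.

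The place of Rnase1 among the acinar genes depends on the scale, since its log2 difference moves with the constant added. Its knockout level was 13.9% of wild type, against 18.0% for Prss2 (trypsinogen) and 28.9% for Cel (carboxyl ester lipase). Other acinar genes lay on both sides of Rnase1, such as Amy1 at 5.39%, Cela3b at 8.08% and Pla2g1b (pancreatic phospholipase A2) at 73.2%. The log2 differences were -2.03 for Rnase1, -2.45 ± 0.03 for Prss2 and -1.76 ± 0.16 for Cel, where the median of the tested acinar genes on MG-U74A was -2.68. Of the tested acinar genes, Pla2g1b did not pass, at -0.40 ± 0.18. Prss2, Cel and Pla2g1b were named after their values had been seen. The part of acinar cell content in the difference of Rnase1 was not tested.

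**Figure D4:**
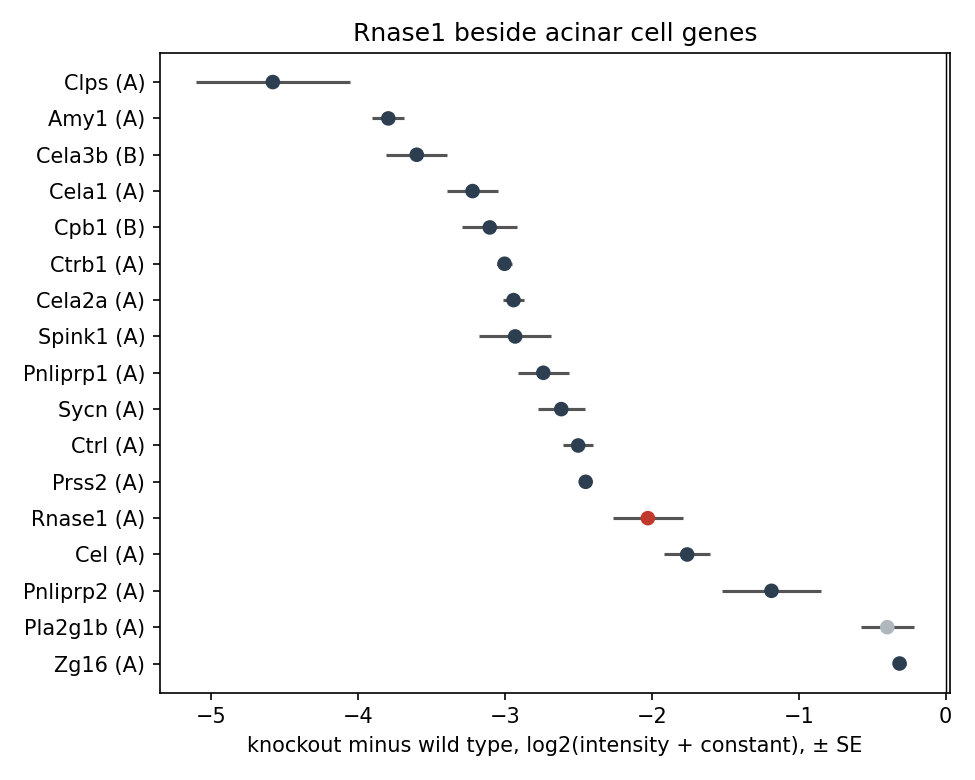
Log2 difference, knockout minus wild type, with its standard error, for Rnase1 (red) and the tested acinar cell genes of both array types (A or B in parentheses). Dark points passed the threshold and Rnase1 was not given a test. All lie left of 0, from Clps at -4.58 to Zg16 at -0.31, and Rnase1 lies at -2.03. The place of Clps depends on the constant added, since a knockout value was below 0.

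Transcripts of other cell types also differed between the genotypes on MG-U74A, counted by each gene's brightest tested probe set, where 22.7% of all tested genes rose and 30.2% fell. Lymphocyte genes summed to 21655 to 22646 per array in knockout and 5362 to 5429 in wild type, and 8 of 11 rose and 0 fell by limma, the same at an unadjusted p under 0.05. The B cell marker Cd79a was listed below 0 on both wild type arrays. Macrophage and dendritic cell genes summed to 22119 to 22489 in knockout and 7088 to 7245 in wild type, and 14 of 16 rose and 0 fell, likewise the same unadjusted. Fibroblast and stellate cell genes summed to 29112 to 29766 in knockout and 10030 to 10164 in wild type, with 14 of 17 that rose and 1 that fell (0 without either wild type array), and Acta2 was listed below 0 on both wild type arrays. The fall was that of Col1a2, a collagen gene named after its values had been seen, with -0.34 ± 0.05 on its brightest probe set and 3.27 ± 0.07 on another, so its direction is not settled. Endothelial genes summed to 6048 to 6154 in knockout and 5171 to 5193 in wild type, with 7 of 11 that rose (4 without wild type replicate 1 and 3 without wild type replicate 2) and 1 that fell. Duct cell genes summed to 8925 to 9165 in knockout and 9971 to 10603 in wild type, with 4 of 12 that rose and 5 that fell. On MG-U74B, where 9.60% of the tested genes rose and 9.60% fell, 1 of 2 lymphocyte genes rose. No marker of endothelial, duct or fibroblast and stellate cells and no islet hormone passed there by limma on its brightest probe set, with 2 of these higher at an unadjusted p under 0.05, while a dimmer probe set of the endothelial gene Plvap rose by 0.56 ± 0.12 (limma, adjusted p = 0.0400). The part of these cells, and of the Gapdh and actin ratios, in the lower Rnase4, Ang and Rnase1 was not tested.

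Nucleases outside the family were counted by each gene's brightest tested probe set. Of 13 tested on MG-U74A by limma, 5 rose and 0 fell (median 0.33), and 7 rose and 1 fell at an unadjusted p under 0.05, where 22.7% of all tested genes rose and 30.2% fell. Without wild type replicate 1, 3 rose, and with no filter likewise 3, while 1 fell with quantile normalization or without knockout replicate 2. Endog, the mitochondrial endonuclease G, rose by 1.34 ± 0.16. Elac2, whose product trims the 3' end of transfer RNA precursors, rose by 1.08 ± 0.11 on its brighter MG-U74A probe set and fell by 0.75 ± 0.13 on the other, so its direction is not settled. Rpp30, a subunit of ribonuclease P, had -0.33 ± 0.12 on its brighter probe set, which did not pass (limma, adjusted p = 0.0878). It fell on a dimmer one, to 26.5 and 51.0 in knockout against 154.7 and 149.6 in wild type (limma, adjusted p = 0.0113). The knockout mean of the dimmer one, 38.75, was below the filter, which it passed through its wild type arrays. Its name also carries the family ending f_at. On MG-U74B 2 of 15 rose and 2 fell (median 0.49), where 9.60% of the tested genes rose and 9.60% fell. Ern1, whose product is the endoribonuclease sensor of endoplasmic reticulum stress, fell by 1.64 ± 0.09, to 1339 ± 42.1 in knockout against 4216 ± 88.5 in wild type (SD, n = 2 each, limma, adjusted p = 0.00530). Pop5, a subunit of ribonuclease P, fell by 0.69 ± 0.10, and Rpp40, another subunit, and Rnaseh2b rose by 1.41 ± 0.27 and 0.63 ± 0.12, with a dimmer Rnaseh2b probe set at -0.48 ± 0.39. None of these 4 calls on MG-U74B remained without wild type replicate 1 or 2 (adjusted p between 0.0667 and 0.169).

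Other factors of vessel growth, the process for which angiogenin is named, went both ways. Of 24 tested on MG-U74A, 8 rose and 4 fell (median 0.18), with 2 rises without wild type replicate 1 and 5 without wild type replicate 2, and of 8 on MG-U74B, 3 rose and 1 fell (median 0.54). Over all tested genes 22.7% rose and 30.2% fell on MG-U74A, and 9.60% rose and 9.60% fell on MG-U74B. Vegfb, a growth factor of the VEGF family, read 118.5 and 128.8 in knockout, against 543.0 and 540.7 in wild type, and fell by 1.93 ± 0.09 (limma, adjusted p = 3.89e-04). Serpinf1, an inhibitor of vessel growth, fell by 1.11 ± 0.11 on its brighter probe set and rose by 2.13 ± 0.14 on the other, so its direction is not settled. Cxcl12, a chemokine, and Col18a1, the source of endostatin, rose by 2.01 ± 0.08 and 0.99 ± 0.06 on their brightest MG-U74A probe sets. Cxcl12 on MG-U74B had 0.68 ± 0.21 and did not pass (adjusted p = 0.0925). Other tested Col18a1 probe sets gave 0.38 ± 0.06, which passed, and 0.19 ± 0.23, which did not. Vegfa, the main islet factor that attracts vessels, fell on both array types, by 0.93 ± 0.05 on MG-U74A (adjusted p = 5.23e-04) and by 1.07 ± 0.13 on MG-U74B (adjusted p = 0.0110). On MG-U74B the receptor gene Nrp2 and the hypoxia factor gene Epas1 rose by 1.02 ± 0.20 and 0.96 ± 0.13, where a dimmer Epas1 probe set on MG-U74A gave 0.38 ± 0.20. None of these 3 calls on MG-U74B remained without wild type replicate 1 or 2 (adjusted p between 0.0942 and 0.151), and that of Nrp2 ended with the replicate number as a block (adjusted p = 0.0534).

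The genes whose profile was most like that of Rnase4 were found by the Euclidean distance between log2 values over the 4 MG-U74A arrays, each centred on its own mean. The nearest 5 genes were Wnt4 (0.22), Rps29 (0.23), Gata1 (0.34), Cmip (0.35) and Dio1 (0.41). By comparison, the distance from Rnase4 was 1.91 for Ang and 2.35 for Rnase1. The measure was chosen to match the size of the fall, so their own differences, between -4.54 and -4.01, are no further result. On both knockout arrays Wnt4, Rps29 and Gata1 had values below 0, as Cmip and Dio1 had on 1, where the size of the difference is set by the constant added. Rnase4 differed from these 5 in that its knockout arrays read 195.7 and 192.1, well above 0. Dio1, the type 1 deiodinase, read -4.2 and 7.2 in knockout, against 561.5 and 720.8 in wild type.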

How the data were processed

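RNA of pancreatic islets was measured on Affymetrix MG-U74A and MG-U74B arrays, 2 per genotype and type. The authors deposited linear intensities, 1 per probe set, with 18.4% to 26.7% of an array's values below 0, and the equal trimmed means were read from the values. Their software was not stated in these sources. Genotypes were taken from the labels, and the name and level of the deleted gene are not reported here.

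Each array was multiplied by 1 factor to its array type's average trimmed mean, values below 0 were set to 0, a constant of 10% of that mean was added and log2 taken. From these deposited values in log2 form, limma's lmFit and trended eBayes (limma 3.58.1, R 4.3.3) compared knockout with wild type within an array type, two-sided, without a block, with Benjamini-Hochberg adjustment over all tested probe sets and a threshold of 0.05. Not tested were 66 control probe sets per type and probe sets with a mean below 25% of the trimmed mean. What p-values measure is only the spread of these arrays, in part perhaps technical. The number of arrays limits the precision. The procedure was tested on simulated data.

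Genes were named from the array annotation, updated through a gene table of GRCm38.p6. On MG-U74A 10855 probe sets had 1 symbol, 396 several and 1237 none, and on MG-U74B 10603, 178 and 1696. In a list, a gene's brightest tested probe set represents it. The lists were other ribonuclease family genes, inhibitor and partners, other nucleases, vessel growth factors, gene neighbours, islet hormones, and markers of acinar, duct, endothelial, lymphoid, myeloid and fibroblast or stellate cells. The genes and lists were chosen with earlier results of these data known. Named were all tested family and partner genes, tested neighbours past the threshold, and the 5 genes most like Rnase4. In other lists the 2 largest rises and falls past the threshold without overlap were named. Of the marker lists only the acinar ones are printed, and further marker genes where they passed the filter through 1 genotype. Alternatives were constants of 5% and 20%, no filter, quantile normalization, no variance trend, the replicate number as a block, and leaving out each array. Of the deviations from the genotype means, same-numbered arrays correlated at 0.02 on MG-U74A and 0.03 on MG-U74B.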

Additional observations from a re-analysis of the deposited data

How the results depend on the processing

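Rnase4, Ang and Rnase1 were lower in knockout under every alternative tried. The log2 difference of Rnase4 was -4.43 with a constant of 5%, -4.20 with 20% and -4.47 with quantile normalization, and lay between -4.36 and -4.34 without 1 array. That of Ang was -2.27 with a constant of 20%, and between -2.63 and -2.28 without 1 array. That of Rnase1 was -2.38 with 5%, -1.59 with 20%, and between -2.26 and -1.80 without 1 array. Ang2 fell in each setting. The cause of the changes below was not tested, apart from fewer arrays or more probe sets tested where a setting brings them.

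On MG-U74B 332 probe sets rose and 432 fell with no filter, and 295 and 343 with no variance trend, against 675 and 697 in the reported fit. Leaving out 1 array gave 1 to 288 rises and 0 to 646 falls there, lowest without either wild type array, and 1298 to 1759 rises and 1141 to 2484 falls on MG-U74A, where falls were fewest without wild type replicate 2. With no filter 3 other nucleases rose on MG-U74A and 0 on MG-U74B, 2 islet hormones fell on MG-U74A and 0 lymphocyte genes rose on MG-U74B. With no variance trend 0 other nucleases rose and 1 fell on MG-U74B, and 0 vessel growth factors and 0 lymphocyte genes rose there. With quantile normalization 1 other nuclease fell on MG-U74A and 1 islet hormone on MG-U74B. With a replicate block 1646 probe sets rose and 1982 fell on MG-U74A, 587 and 620 on MG-U74B, and on MG-U74B 1 vessel growth factor and 1 endothelial gene rose. The deviations of same-numbered arrays correlated at only 0.02 on MG-U74A and 0.03 on MG-U74B, which does not tell whether they were prepared as pairs.

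Without 1 array, the ranges on MG-U74A were 3 to 5 rises and 0 to 1 falls of other nucleases, 2 to 8 rises of vessel growth factors, 2 to 5 falls of islet hormones, 10 to 13 falls of acinar genes, 0 to 1 falls of macrophage and dendritic cell genes and of fibroblast and stellate cell genes, and 3 to 7 rises and 1 to 2 falls of endothelial genes. On MG-U74B they were 0 rises and 0 to 2 falls of other nucleases, 0 to 1 rises and 0 to 1 falls of vessel growth factors, 0 to 2 falls of acinar genes and 0 rises of lymphocyte genes. Egfr on MG-U74A, which did not pass, ranged from -0.20 to 0.44, and was -0.08 without knockout replicate 1. Over 33 named probe sets and 328 values under alternatives, 33 lost and 1 gained the threshold and 2 changed sign.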
